A study of Mus musculus with 18 samples.

Results

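The genes described here are 10 members of the Notch pathway, namely the receptors Notch1, Notch2, Notch3 and Notch4, the ligands Dll1, Dll4, Jag1 and Jag2, and the target genes Hes1 and Hey1. They were chosen by name, and all 10 were found among the 20275 genes of the count matrix. Bone marrow (BM) of C57B6/J mice had been profiled by single-cell RNA sequencing on embryonic days E16.5 and E18.5, on postnatal day 0 (P0) and in adults. Hematopoietic progenitors (HPs, sorted as Lineage-Kit+ cells) and stromal cells (sorted as CD45-Ter119- cells) were sequenced apart. HPs of E16.5 had 2 libraries, and each remaining group of stage and sort had 1, made from cells pooled over several mice. The labels name no transgene and no treatment.

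Notch receptors are membrane proteins that are cleaved when a ligand on a neighbouring cell engages them. The freed intracellular part enters the nucleus, binds the DNA-binding protein RBPJ and turns on target genes, among them the Hes and Hey repressors. The pathway is best known in blood and vessels for T cell commitment through NOTCH1, for arterial identity through DLL4 and endothelial receptors, and for mural cells (pericytes and smooth muscle) through JAG1 and NOTCH3.

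A library held between 560 and 14084 cells and between 13974733 and 194892476 unique molecular identifiers (UMIs, which count captured transcripts), and its median cell between 6747 and 23291.5 UMIs. Levels are CPM, the UMIs of a gene per 1000000 UMIs summed over a group of cells, with an exact Poisson 95% interval in parentheses. Shares of cells with at least 1 UMI were given exact Clopper-Pearson intervals. Both cover counting error only. UMIs mark transcript ends, so CPM is not scaled to gene length. Groups of cells are the deposited clusters, of which 66 HP and 63 stromal ones had at least 50 cells and a median of at least 1000 UMIs. Stage and library cannot be told apart except among E16.5 HPs, so cluster levels were not tested between stages. Where intervals of different stages are set side by side, this describes counts of single libraries and not a difference between stages. Values given in stage order run from E16.5 over E18.5 and P0 to the adult.

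Some cell barcodes occurred in more than 1 library, namely 1102 of 54831 distinct ones. The adult HP library shared 375 with the E18.5 HP library and 330 with the first E16.5 HP library. In the adult HP library 694 of 5985 cells held fewer UMIs than a cell of another library with their barcode, with a median of 549 UMIs. Such cells made up 92.04% of adult cluster Mast4i, 65% of Mast4ii and 47.8% of MyP4, 97.6% of Mast/Bas (E18.5) and 76.3% of Mast4 (P0), and these clusters are not described. Among E18.5 endothelial cells they were 5.32%. Leaving out all such cells changed no direction and no call of a member in the whole-library tests.

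The 150 bases upstream of the RefSeq transcription start (GRCm38.p6, 5′ to 3′ on the strand of the gene) are shown for Dll4 and Notch4, whose levels were highest in endothelial cells, and for Notch3, highest in clusters with pericyte markers. They lie at chr2:119325634-119325783 (plus strand), chr17:34564145-34564294 (plus strand) and chr17:32166891-32167040 (minus strand). Capitals mark GGAA on either strand, the core bound by ETS factors.

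Dll4: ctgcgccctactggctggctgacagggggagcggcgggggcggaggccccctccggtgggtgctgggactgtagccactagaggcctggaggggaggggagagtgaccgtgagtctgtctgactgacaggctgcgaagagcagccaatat

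Notch4: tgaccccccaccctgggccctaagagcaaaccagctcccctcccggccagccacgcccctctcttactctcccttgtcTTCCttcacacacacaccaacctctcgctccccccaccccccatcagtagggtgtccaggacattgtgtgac

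Notch3: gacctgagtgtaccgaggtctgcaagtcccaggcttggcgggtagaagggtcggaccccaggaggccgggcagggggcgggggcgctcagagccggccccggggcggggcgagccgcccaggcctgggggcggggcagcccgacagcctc

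The Notch4 window held GGAA at 1 place and the other two windows at 0. Of 32851 RefSeq windows of this length, 80.84% held it on either strand, as did 6 of the 9 windows of the 8 members that matched. The RBPJ core TGGGAA, which contains GGAA, was in 13.1% of all windows and in 0 of those 9. Hes1 and Hey1 had no entry. Such matches describe letters only. In GENCODE M21 (GRCm38) Notch1 spans chr2:26457903-26516663, Notch2 chr3:98013527-98150361, Notch3 chr17:32120820-32166852 and Notch4 chr17:34564268-34588503. The ligand genes are at chr17:15367354-15376872 (Dll1), chr2:119325784-119335962 (Dll4), chr2:137081456-137116644 (Jag1) and chr12:112907819-112929776 (Jag2), and the target genes at chr16:30064384-30067796 (Hes1) and chr3:8663359-8667256 (Hey1).

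**Figure D1:**
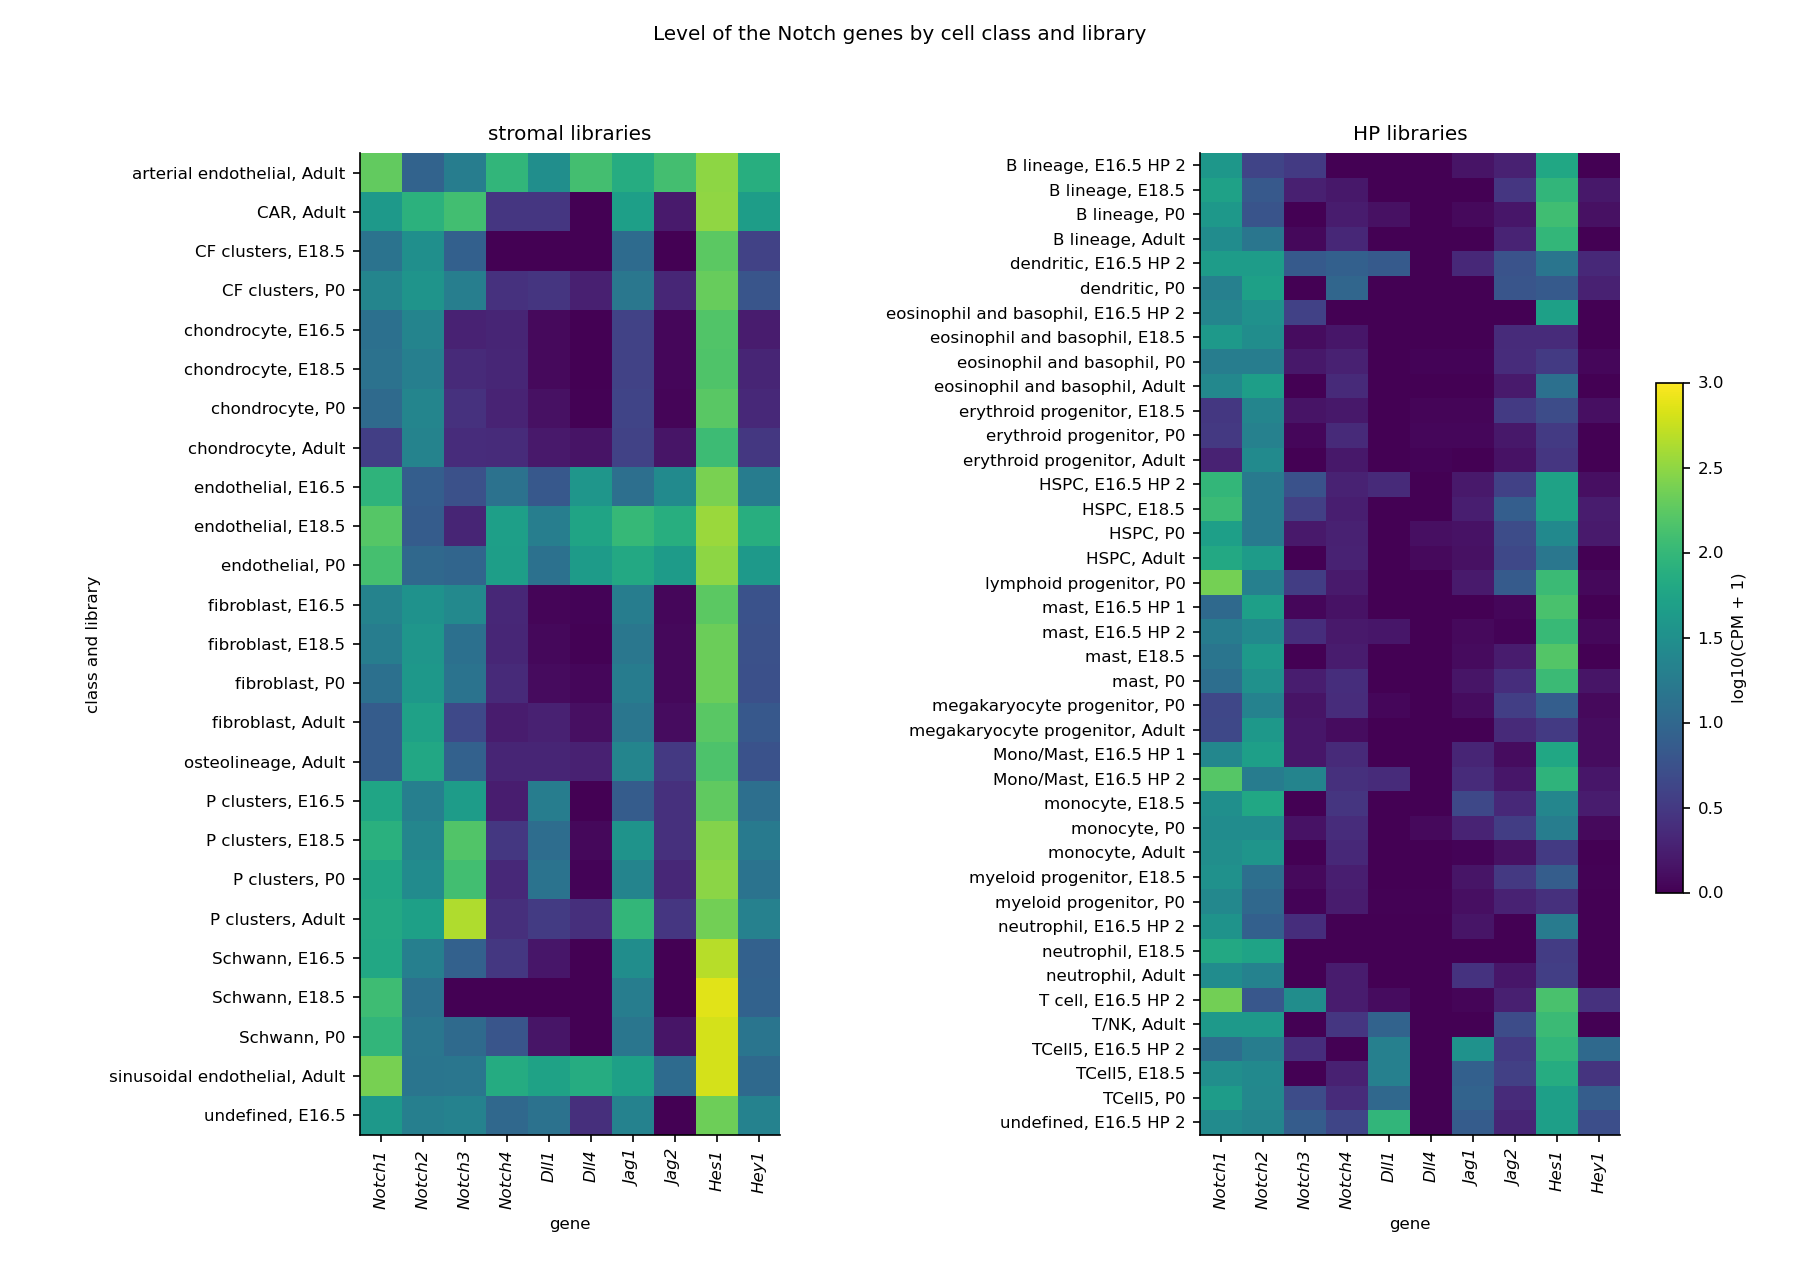
Level of each of the 10 genes in each cell class and library with at least 50 cells and a median of at least 1000 UMIs, as log10(CPM + 1), without the stromal cells of the HP libraries. The E18.5 row of erythroid progenitors is a cluster coded EryP/MegP. Notch4 and Dll4 are high in endothelial classes (Dll4 up to 125 CPM), and Notch3 is highest in the adult P clusters (444 CPM). Jag2 is high in endothelial classes except the adult sinusoidal one (10.2 CPM). Notch1 is high in endothelial and T cell classes and in the class coded as lymphoid progenitors.

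Among stromal cells, Notch1 was highest in the endothelium. NOTCH1 is the receptor needed for T cell commitment and for endothelial patterning. In endothelial cells (ECs) Notch1 was at 88.5 (69.8 to 111) CPM on E16.5, 162 (137 to 189) on E18.5 and 128 (114 to 143) on P0. The adult codes separate arterial (AECs) from sinusoidal (SECs) endothelial cells, in which it was at 191 (174 to 209) and 244 (222 to 268) CPM. The E16.5 interval lay below all the others. In these 5 clusters the marker list with the highest score was endothelial, arterial or sinusoidal, as the codes say.

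A Notch1 UMI was found in 64.8%, 67.02%, 62.3%, 52.3% and 79.9% of these cells, at median depths of 10893, 9992, 10797, 4520.5 and 7118 UMIs. Cells with at least 1000 UMIs were then thinned to 1000 UMIs in a single random draw, and the rest were left out. Left out were 11 of 94 ECs of E18.5, 26 of 223 of P0 and 11 of 400 AECs. After thinning the shares were 5.63% (1.56 to 13.8), 19.3% (11.4 to 29.4), 14.2% (9.66 to 19.9), 15.2% (11.8 to 19.1) and 24.7% (18.8 to 31.4). Thinned chondrocytes had 1.37%, 1.03%, 1.004% and 0.0921% in stage order.

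Schwann cells, the glia of peripheral nerve, had 61.5, 117 and 93.6 CPM of Notch1 in the 3 perinatal libraries. The clusters P1i, P1, P3 and adult P1 had 54.7, 89.2, 62.1 and 103 CPM. The muscle list scored highest in them, and Pax7, a factor of muscle satellite cells, was at 89.9, 90.9, 68.8 and 343 CPM. Adult CARs (CXCL12-abundant reticular cells) had 39.99 CPM and adult chondrocytes 2.62.

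Among HPs, Notch1 was highest in T cell clusters of the second E16.5 library, with 341 (327 to 356) CPM in TCell4 and 311 (301 to 322) in TCell1. TCell3, TCell2 and TCell6 had 195, 168 and 156 CPM. Ptcra, the pre-T cell receptor alpha chain, was also highest in TCell4 and TCell1 (599 and 526 CPM), against 80.2, 51.1 and 213 in the other three. In these 5 clusters together 96.1% of 1955 cells had a Notch1 UMI (median 22848 UMIs), and 19.7% (17.95 to 21.5) after thinning. Mast cells of that library had 15.5% (median 16625 UMIs) and 1.22% (0.766 to 1.84) after thinning.

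The P0 cluster LymP, coded as lymphoid progenitors, had 233 (221 to 246) CPM of Notch1, with a UMI in 90.98% of 388 cells and 22.7% (18.6 to 27.2) after thinning. No marker list for lymphoid progenitors was used, and its highest-scoring list was arterial endothelial, followed by HSPC. Clusters coded HSPC (hematopoietic stem and progenitor cells) had 161 CPM (33 cells) and 94.9 CPM in the E16.5 libraries, 109.6 in E18.5 HSPC2, 46.1, 55.2 and 33.04 in the P0 clusters HSPC2, HSPC3 and HSPC4, and 64.2 in adult HSPC5. The HSPC list scored highest in P0 HSPC2 and HSPC3 and in adult HSPC5. Another list scored above it in E16.5 HSPC1 (dendritic cell), E18.5 HSPC2 (fibroblast) and P0 HSPC4 (neutrophil), so these codes, like LymP, are used as labels only. The fibroblast list shares Cd34 with the HSPC list, and Hlf, a stem cell factor, was at 157 CPM in E18.5 HSPC2 and 151 in P0 HSPC2.

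In thinned cells of HSPC codes a Notch1 UMI was found in 11.1% (8.14 to 14.6) in E18.5 HSPC2, 5.71% (4.596 to 7.01) in the 3 P0 clusters together and 6.4% (4.61 to 8.61) in adult HSPC5. These are unlike sets of clusters and were not compared by stage. Erythroid codes were at the low end. The E18.5 cluster EryP/MegP, a joint erythroid and megakaryocyte code, P0 EryP1 and adult EryP2 had 2.097, 2.15 and 0.9296 CPM. Their unthinned shares were 8.29%, 6.02% and 2.53% at medians of 46052, 37938 and 27905.5 UMIs. After thinning 0 of 205, 464 and 473 cells had a Notch1 UMI, with upper interval bounds of 1.78%, 0.792% and 0.777%.

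Notch1 in the E16.5 cluster Mono/Mast was at 23.6 CPM in the first library and 159 in the second. Cd3e, a subunit of the T cell receptor complex, was at 0 and 214 CPM in the same cells. In Mast1, Notch1 was at 9.42 and 27.3 CPM beside 0 and 25.8 CPM of Cd3e. The part of T cell transcripts in these Notch1 levels was not tested.

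**Figure D2:**
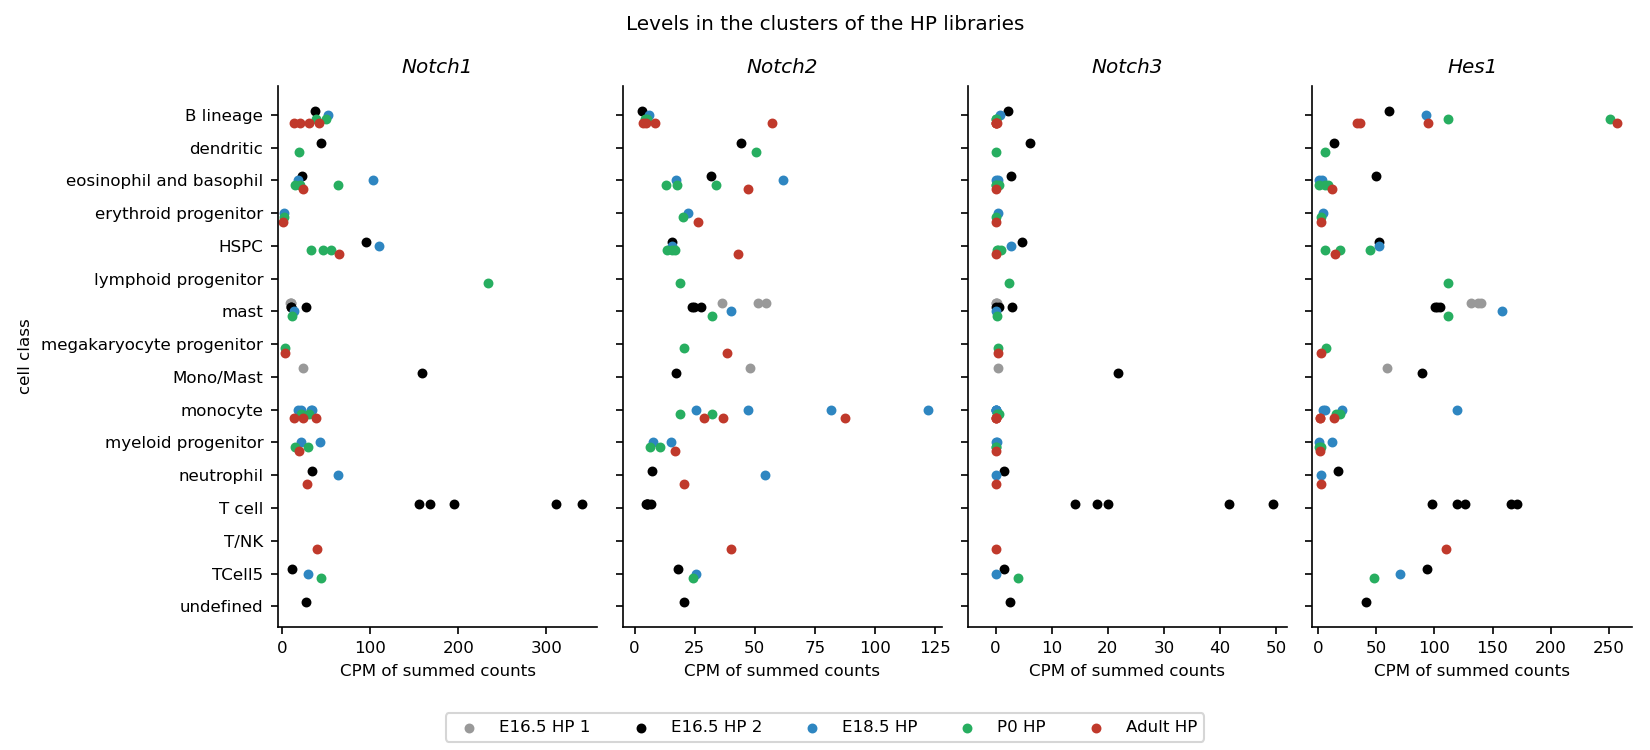
Levels of Notch1, Notch2, Notch3 and Hes1 (CPM, a point for each cluster, coloured by library) in the clusters of the 5 HP libraries that had at least 50 cells and a median of at least 1000 UMIs. Notch1 is highest in TCell4 of the second E16.5 library (341 CPM) and Hes1 in adult Pre/Pro-B2 (257 CPM).

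Notch2, a receptor known for its part in marginal zone B cells, was spread over most cell types and low in the endothelium. It was at 6.895, 6.38, 9.42, 7.897 and 13.5 CPM in perinatal ECs in stage order, AECs and SECs, against a median of 24.8 over the stromal clusters. The highest stromal levels were in adult P1 (93.9), CARs (84.7) and F11 (79.2). HP clusters ranged from 3.07 CPM in E16.5 Bcell1 to 122 in E18.5 Mono1iii, followed by adult Mono6 (87.6).

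Notch3, the receptor of vascular smooth muscle and pericytes, was highest in 1 cluster of each stromal library. This was the cluster with the highest score for the pericyte and smooth muscle list among all clusters of its library, namely F4 (E16.5, coded as a fibroblast), P2 (E18.5), P2 (P0) and P4 (adult). In P4 the erythroid list scored higher still. Rgs5, a pericyte gene, was at 637, 1580, 2099 and 4453 CPM and Myh11, of smooth muscle, at 112, 461, 488 and 1862. Notch3 was at 144 (132 to 156), 317 (292 to 343), 349 (329 to 369) and 597 (560.4 to 635) CPM. The adult interval lay above the others, the E16.5 interval below them, and those of E18.5 and P0 overlapped.

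A Notch3 UMI was found in 65.2%, 91.9%, 89.8% and 95.3% of these cells, and in 2.82%, 1.06%, 4.48%, 2% and 5.16% of the perinatal ECs, AECs and SECs. The pericyte-marker clusters held 33.5%, 45.1%, 40.3% and 54.9% of the stromal Notch3 UMIs. Adult CARs had 122 (109.5 to 135) CPM and the muscle-marker clusters 62.3, 77.9, 58.8 and 178. In E16.5 P-2, where Myog, a factor of muscle differentiation, was at 2391 CPM, Notch3 was at 2.17 CPM.

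Among HPs, Notch3 was at 49.5, 41.6, 20.03, 18.04 and 14.2 CPM in TCell1, TCell4, TCell3, TCell2 and TCell6 of the second E16.5 library, and at 21.9 in its cluster Mono/Mast. In Mono/Mast of the first library Notch3 was at 0.518 (0.0627 to 1.87) CPM, from 2 UMIs, and the Cd3e levels given above for these cells were likewise higher in the second library. The part of T cell transcripts was not tested here either. Notch3 had no UMI in 28 of the 66 HP clusters, whose median was 0.222 CPM.

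Notch4, the endothelial receptor, was at 12.6 (6.31 to 22.6) CPM in ECs of E16.5, 47.8 (34.9 to 64.02) on E18.5, 46.7 (38.5 to 56.1) on P0, 92.7 (80.9 to 106) in AECs and 69.6 (58.1 to 82.6) in SECs. The E16.5 interval lay below the others, and E18.5 and P0 did not differ beyond counting error. Endothelial cells were 0.863%, 1.42%, 1.58% and 9.48% of the stromal cells in stage order, and they held 7.97%, 26.2%, 33.4% and 80% of the Notch4 UMIs. In HPs Notch4 reached 8.69 CPM in the P0 dendritic cluster DC3 and 7.37 in E16.5 DC1.

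Dll4, the ligand of arterial and sprouting endothelium, was low outside the endothelium. It was at 36.8 (25.2 to 51.9) CPM in ECs of E16.5, 55.3 (41.3 to 72.5) on E18.5, 42.99 (35.2 to 52.04) on P0, 125 (111 to 140.1) in AECs and 71.7 (60.04 to 84.98) in SECs. The perinatal levels did not differ beyond counting error, and the AEC interval lay above that of SECs. Endothelial cells held 88.9%, 94.6%, 86.8% and 92.1% of 36, 55, 121 and 471 stromal Dll4 UMIs.

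A Dll4 UMI was found in 32.4%, 34.04%, 29.6%, 42.3% and 38.7% of these endothelial cells and in 0.0242%, 0.0245%, 0.0823% and 0.731% of chondrocytes, whose median depths were 14031.5, 17873, 17077 and 27498 UMIs. After thinning it was found in 4.23% (0.88 to 11.9), 8.43% (3.46 to 16.6) and 4.57% (2.11 to 8.495) of perinatal ECs, 13.1% (9.92 to 16.9) of AECs and 5.67% (2.86 to 9.92) of SECs, and in at most 0.0921% of chondrocytes. Of the HP clusters, 57 had no Dll4 UMI, and the highest level was 0.577 CPM in P0 HSPC2.

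Jag2, also a ligand of arterial endothelium, was at 26.4 (16.8 to 39.7) CPM in ECs of E16.5, 74.4 (58.02 to 94.03) on E18.5 and 43.4 (35.5 to 52.5) on P0. It was at 124 (111 to 139) in AECs and 10.2 (6.17 to 16) in SECs, whose interval lay below all the others. In HPs its 3 highest clusters were E18.5 HSPC2 (6.78 CPM), P0 LymP (6.24) and P0 HSPC2 (5.38).

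Dll1, a ligand used in muscle and lymphoid development, was found in endothelium, muscle-marker clusters and small HP clusters. It was at 5.75 (1.87 to 13.4), 18.1 (10.5 to 28.9), 12.3 (8.29 to 17.5), 29.1 (22.7 to 36.8) and 52.3 (42.4 to 63.8) CPM in perinatal ECs in stage order, AECs and SECs, and the SEC interval lay above that of AECs. E16.5 P-2 had 40.8 (35.1 to 47.02) CPM, E16.5 P1i 7.93 (6.33 to 9.82), E18.5 P1 15.5 (12.03 to 19.7) and P0 P3 16.1 (13.9 to 18.5). Adult P1 had 2.57 (0.312 to 9.29) CPM, an interval that overlapped that of P1i and lay below those of E18.5 P1 and P0 P3.

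In the second E16.5 HP library the undefined cluster UD1 (76 cells, median 6136 UMIs) had 114 (91.3 to 140.3) CPM of Dll1. TCell5 had 18.99 CPM in that library, 19.1 on E18.5 and 9.42 on P0. TCell5 also held the highest HP levels of Jag1, with 33.1, 7.26 and 8.07 CPM in the same order. In the second E16.5 library its Notch1 level was 10.8 CPM, its Hey1 level 9.68, and the list of general blood genes scored above the T cell list. Dll1 had no UMI in 49 HP clusters.

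Jag1, the ligand of mural cells, was found in endothelium, pericyte-marker clusters, CARs and fibroblast clusters. It was at 11.5 (5.51 to 21.1) CPM in ECs of E16.5, 102 (82.7 to 125) on E18.5, 64.3 (54.6 to 75.2) on P0, 71.5 (61.2 to 83.01) in AECs and 49.6 (39.99 to 60.8) in SECs, and the first interval lay below the others. The E18.5 level came from 96 UMIs in 24 of 94 cells. The pericyte-marker clusters had 65.8 (57.9 to 74.4), 85.2 (72.6 to 99.4), 66.2 (57.96 to 75.3) and 141 (123 to 159.7) CPM in stage order, and the adult interval lay above the others. Adult CARs had 48.99 CPM, and a UMI in 31.5% of cells. Most stromal Jag1 UMIs lay outside the vessel clusters. Endothelial cells held 1.02%, 10.5%, 8.08% and 17.4% of them in stage order and the pericyte-marker clusters 25.5%, 17.7%, 11.95% and 15.5%. The fibroblast clusters F7 (P0) and F8 (adult) had 27.4 and 29.01 CPM, from 571 and 422 UMIs, against 147 UMIs in CARs.

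**Figure D3:**
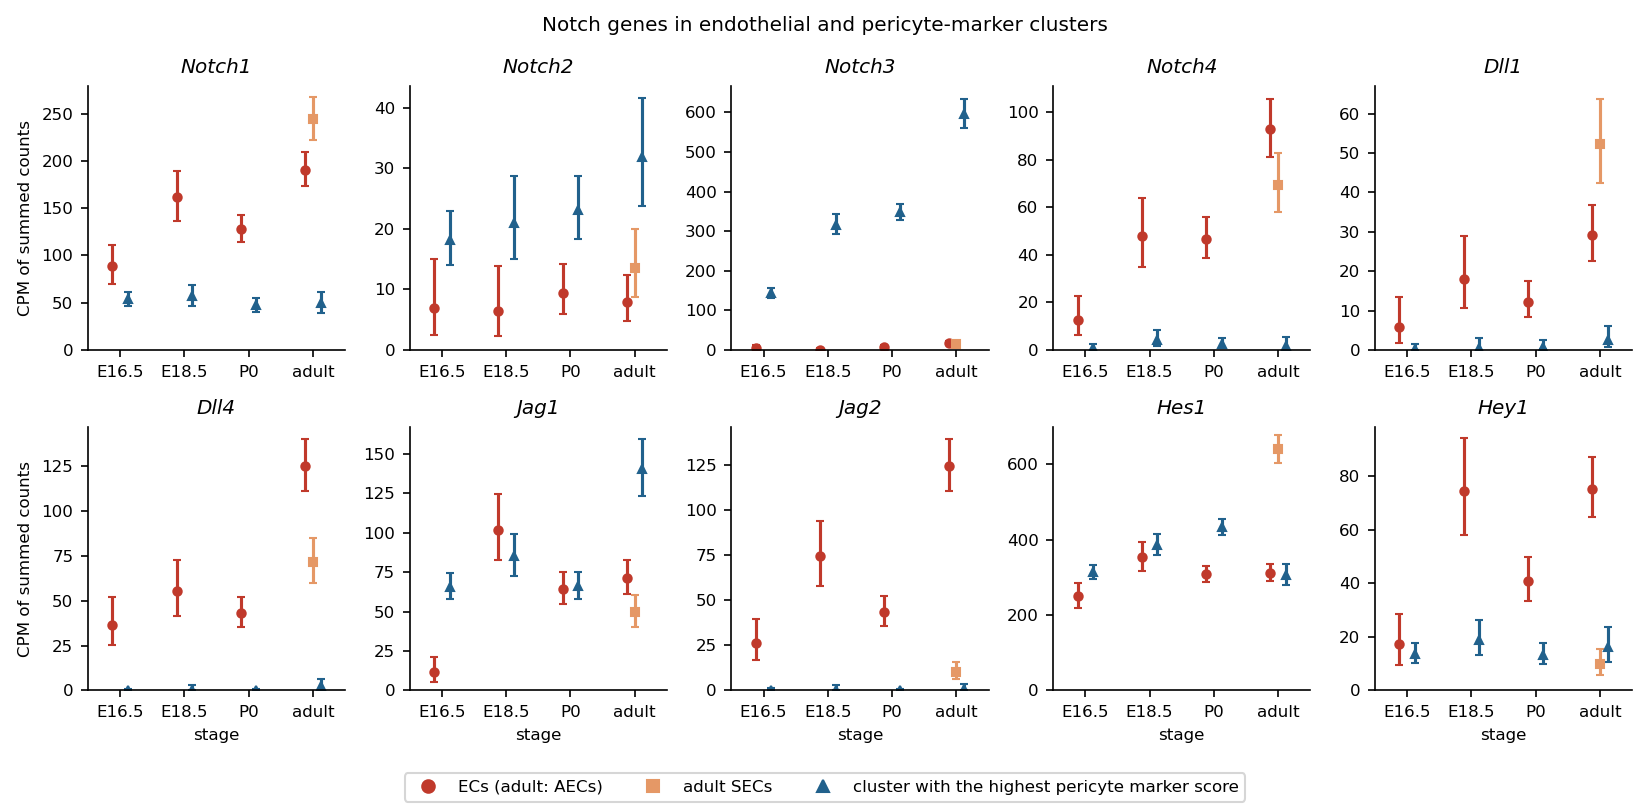
Level of each gene (CPM, vertical axes from 0) in endothelial and pericyte-marker clusters by stage, with exact Poisson 95% intervals and 1 library a stage. Notch3 runs from 144 to 597 CPM in pericyte-marker clusters and reaches 17.5 in endothelium, while Dll4 and Jag2 are higher in the endothelial than in the pericyte-marker clusters of every stage.

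Hes1, a repressor induced by NOTCH and by other signals, was detected in all of the 63 stromal clusters, with a median of 201 CPM, and 51 of them reached 100 CPM. Schwann cells had 473, 740 and 647 CPM. Perinatal ECs had 251, 354 and 308 CPM, AECs 312 (289.8 to 335) and SECs 640 (604 to 677). Pericyte-marker clusters had 315, 386, 433 and 307 CPM.

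In HPs the B lineage clusters adult Pre/Pro-B2 (257 CPM) and P0 BCell2 (251) had the highest Hes1, at Notch1 levels of 42.3 and 49.5 CPM. Their median depths were low, at 2159.5 and 3499 UMIs. The other B lineage clusters had less Hes1, from 33.5 CPM in adult Bcell4 to 112 in P0 Bcell1. Mast cells of E16.5 had 137 and 103 CPM, at 9.5 and 17.2 CPM of Notch1. TCell1, TCell4, TCell3, TCell2 and TCell6 had 166, 171, 119, 126 and 97.97 CPM and P0 LymP 111. Of the HSPC codes, E16.5 HSPC1 had 34.8 CPM (33 cells) and 52.4 CPM in the first and second library, E18.5 HSPC2 had 51.97 CPM, P0 HSPC2, HSPC3 and HSPC4 had 44.2, 19.03 and 5.77, and adult HSPC5 had 14.3. EryP/MegP, EryP1 and EryP2 had 3.97, 2.26 and 2.01 CPM.

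Hey1, a target gene of arterial endothelium, was at 17.2 (9.65 to 28.4) CPM in ECs of E16.5, 74.4 (58.02 to 94.03) on E18.5, 40.9 (33.3 to 49.8) on P0, 75.2 (64.7 to 87.03) in AECs and 9.71 (5.75 to 15.3) in SECs. The SEC interval lay below those of E18.5, P0 and AECs and overlapped that of E16.5. Hey1 was at 45.7 (38.3 to 53.98) CPM in adult CARs and 49.6 (36.2 to 66.4) in UD4 of the P0 stroma, an undefined cluster of 75 cells with 60.7 CPM of Notch3. In 36 HP clusters it had no UMI.

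Endothelial cells were next set beside all other stromal cells of their library. There is 1 library a side and clusters were made from the same counts, so this is a description, and a gene was counted when it had at least 20 UMIs and its CPM differed at least 2-fold. A gene can reach 20 UMIs through the side where it is high alone, so this filter bears on the counts of members in these pairs of cell sets, and nothing is read from them. In stage order 6, 8, 7 and 8 of 10 members were higher in ECs, against 13.4%, 19.2%, 16.4% and 19.5% of all genes. Lower were 2, 2, 1 and 1 members, against 30.7%, 29.2%, 26% and 21.7% of all genes, and the shares either way were 44%, 48.4%, 42.4% and 41.2%. Notch1, Notch4, Dll1, Dll4, Jag2 and Hey1 were higher in each of the 4 libraries and Notch2 lower. On E16.5 Dll1 rested on 5 UMIs in ECs, at 5.75 (1.87 to 13.4) CPM, and cluster P-2 stood higher, at 40.8 CPM. The other stromal cells held 4, 3 and 16 Dll4 UMIs in the 3 perinatal libraries, where Dll4 reached the minimum only through the ECs.

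The Notch4 ratio was 11.6 (5.62 to 21.4), 42.02 (29.2 to 59.5), 39.6 (31.3 to 49.8) and 82.3 (64.9 to 105) in stage order. For Notch1 it was 4.09 (3.22 to 5.14), 8.85 (7.45 to 10.4), 8.09 (7.18 to 9.096) and 27.1 (24.5 to 29.96). The other stromal cells had 21.6, 18.3, 15.8 and 7.899 CPM of Notch1. For Dll4 the ratio was 1067 (378 to 4153) on E16.5, where the other cells held 4 UMIs, and 241 (172 to 347) in the adult. The Dll4 ratios of E18.5 and P0 are not given, so no course over stages is read from these values.

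Within the adult endothelium, 2 members were at least 2-fold higher in 400 AECs than in 194 SECs (6.58% of 10524 genes) and 1 was lower (10.2%, or 16.8% either way). The AEC to SEC ratio was 12.1 (7.63 to 20.4) for Jag2, 7.75 (4.77 to 13.4) for Hey1 and 0.487 (0.444 to 0.534) for Hes1. SECs held 19 Jag2 and 18 Hey1 UMIs, and both genes reached the minimum only with the 299 and 181 of AECs. Nothing is therefore read from the count of members here. The ratio was 1.75 (1.42 to 2.16) for Dll4, 1.33 (1.07 to 1.67) for Notch4, 1.44 (1.11 to 1.88) for Jag1, 0.556 (0.403 to 0.764) for Dll1 and 0.781 (0.685 to 0.891) for Notch1. The intervals of Notch2 and Notch3 included 1. Of 31 other pathway genes with enough UMIs, Aph1b and Heyl were higher and Maml3 and Dtx2 lower.

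**Figure D4:**
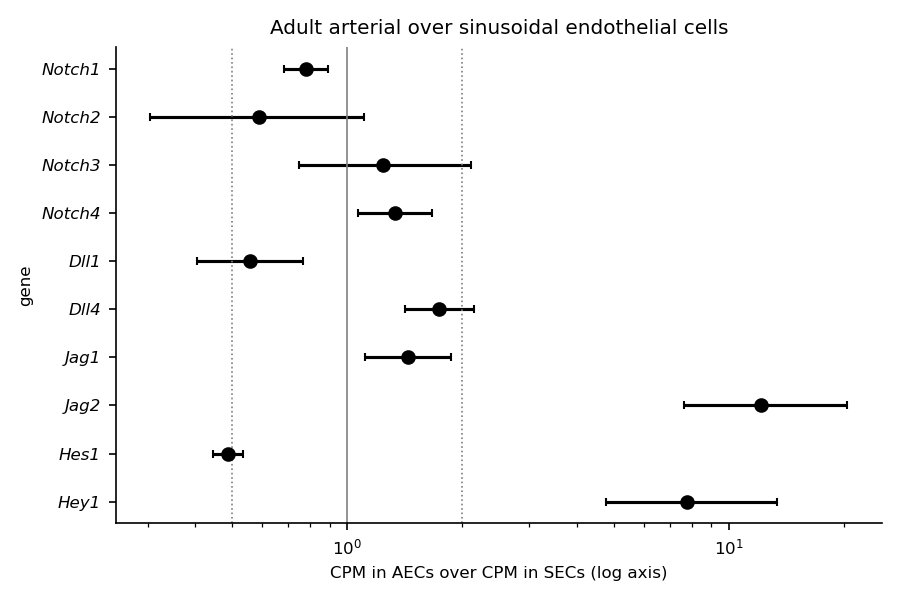
Ratio of the CPM in adult arterial to that in adult sinusoidal endothelial cells (log axis) for the member genes, with exact conditional Poisson 95% intervals and dotted lines at 2-fold. Jag2 (12.1) and Hey1 (7.75) are past 2-fold on the arterial side, with 19 and 18 UMIs in the sinusoidal cells, and Hes1 (0.487) is on the sinusoidal side.

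In the pericyte-marker clusters, set beside all other stromal cells in the same way, 4, 6, 5 and 4 of 10 members were higher in stage order, against 11.9%, 15.5%, 14.3% and 12.2% of all genes. Lower were 2, 0, 2 and 3 members, against 15.6%, 21.4%, 22.2% and 21.6%, and the shares either way were 27.4%, 37%, 36.5% and 33.8%. The members counted as lower had few UMIs in the pericyte-marker clusters, namely 1 of Dll1 and 0 of Dll4 on E16.5, 0 of Dll4 and 0 of Jag2 on P0, and 3 of Notch4, 4 of Dll4 and 1 of Jag2 in the adult, so they reached the minimum only through the other cells. Notch4, counted as higher on E18.5, had 8. Notch1, Notch3, Jag1 and Hey1 were higher in each of the 4 libraries. The Notch3 ratio was 14.9 (13.4 to 16.5), 47.8 (42.9 to 53.4), 36.8 (34.2 to 39.6) and 65.8 (59.95 to 72.3) and the Jag1 ratio 10.1, 12.5, 7.41 and 9.903. In the adult cluster the target genes Heyl and Hey2 had ratios of 17.3 (14.5 to 20.7) and 64.4 (43.98 to 94.6), and Nrarp, a feedback inhibitor of NOTCH, 25.96 (21.9 to 30.7). The ratio of Hes1 was 1.84 (1.68 to 2.01) there, short of 2-fold. Of 42 other pathway genes with enough UMIs, 10 were higher in the adult cluster and 5 lower, namely Dlk2, Dner, Neurl1a, Mfng and Ptcra.

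In the second E16.5 HP library, 2141 cells with a T cell code were set beside 1804 mast cells. Mast cells alone held 17, 6, 2 and 5 UMIs of Dll1, Jag1, Jag2 and Hey1, which reached the minimum of 20 UMIs only together with the T-coded cells, so nothing is read from the counts here either. Of 9 members with enough UMIs, 6 were higher in the T-coded cells (21.6% of 13274 genes) and 1, Notch2, lower (15.2%, or 36.9% either way). Of these cells, 186 were TCell5, in which general blood genes outscored the T cell list and which held 51 of 63 Dll1 and 89 of 94 Jag1 UMIs. Without TCell5, which was left out after seeing the data, 4 of 8 members were higher, namely Notch1, Notch3, Jag2 and Hey1 (21.1% of genes), and Notch2 and Dll1 were lower (16.2%, or 37.3% either way).

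The ratio without TCell5 was 13.5 (12.4 to 14.7) for Notch1, 19.6 (14.7 to 26.8) for Notch3, 10.98 (4.51 to 34.8) for Hey1 and 1.33 (1.28 to 1.39) for Hes1. For Dll1 it was 0.497 (0.217 to 1.104), an interval that included 1, and Jag1 had too few UMIs. Jag2 rested on 39 UMIs against 2 and Hey1 on 78 against 5. Dtx1, Ptcra, Nrarp and Il2ra, which are used as readouts of NOTCH in early T cells, had ratios of 24.5, 23.8, 20.4 and 26.5. Of 39 other pathway genes with enough UMIs 10 were higher and 3 lower, namely Neurl1a (0.341), Psen2 (0.0553) and Hes7 (0.308). In the first library 18 cells had a T cell code, of which 13 were TCell5 with 16 of the 22 Notch1 UMIs. Beside mast cells 1 of 3 members was higher in these 18 (20.7% of genes) and 1 lower (13.4%, or 34% either way), namely Notch1 at 5.77 (3.402 to 9.43) and Hes1 at 0.345 (0.207 to 0.542), and neither can be read as a value of T cells.

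Whole-library sums compared the sorts. Libraries of different stages stood as the spread within a sort, as only E16.5 HPs were replicated. In the edgeR quasi-likelihood test of 4 stromal against 5 HP libraries, with a term for the adult, 6 of 10 members passed an adjusted p of 0.05, where 62.8% of 18407 genes did. Jag1, Dll4, Hey1, Hes1 and Notch4 were higher in stroma (33.6% of all genes were) and Notch1 lower (29.1% were). The share of members called was thus near that of all genes. The median log2 difference was 1.81 over the members, 0.230 over the 44 other pathway genes tested and 0.012 over all genes. These medians were not tested against each other, and single members went both ways. In such sums fewer cells of a type and less RNA per cell cannot be told apart.

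Jag1 was at 8.42, 8.15, 9.96 and 16.5 CPM in the stromal libraries in stage order, and at 1.15, 1.21, 0.786, 0.361 and 0.389 in the HP libraries, the first 2 of E16.5. The groups did not overlap, and the log2 difference was 3.85 ± 0.46 (SE, edgeR adjusted p = 1.24e-04). The share of all genes without overlap between the sorts is not given here, so nothing is read from a lack of overlap. Dll4 was at 0.308, 0.489, 0.621 and 5.13 CPM in stroma and at 0, 0, 0.0154, 0.118 and 0.0338 in HPs, again without overlap (log2 difference 4.22 ± 1.004, edgeR adjusted p = 0.00542). With endothelial and pericyte-marker clusters left out, the log2 difference of Dll4 was 0.94 (edgeR adjusted p = 0.457). That of Notch4 was then 0.34 (edgeR adjusted p = 0.315), against 1.15 ± 0.35 with all cells (edgeR adjusted p = 0.0185). The clusters left out were chosen after seeing the data and include those where stromal Dll4 and Notch4 were highest. Nothing is therefore read from the loss of these calls. Without the P0 stromal library the Notch4 adjusted p was 0.06001 in edgeR.

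Hes1 was at 171, 174, 199 and 169 CPM in stroma and at 97.6, 112, 29.9, 23.1 and 14.6 in HPs, without overlap (log2 difference 1.96 ± 0.55, edgeR adjusted p = 0.0119). Hey1 was at 3.63, 3.31, 4.08 and 7.99 CPM in stroma and at 0.501, 1.22, 0.308, 0.2902 and 0.0169 in HPs, also without overlap (log2 difference 3.501 ± 0.88, edgeR adjusted p = 0.00718). Jag1, Hes1 and Hey1 passed in all 18 other settings tried.

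Notch1 was at 22.1, 19.5, 17.2 and 17.5 CPM in stroma and at 29.1, 130.3, 40.2, 34.3 and 22.6 in HPs. The groups did not overlap, but only by a small margin. The adult HP level was 22.6 (21.4 to 23.9) CPM and the E16.5 stromal level 22.1 (21.3 to 22.98), and these intervals overlapped. The second E16.5 HP library stood far above the rest. T cell codes made up 45.1% of its cells, against 1.095% to 3.21% in the other HP libraries, and its T cell marker list (9 of 9 genes with a UMI in each HP library) summed to 4554 CPM against 22.4 to 126. The log2 difference of Notch1 was -1.29 ± 0.49 (edgeR adjusted p = 0.0456), and 12 of 18 other settings kept the call. Over the 18 it ran from -1.66 to -0.64, and it was nearest 0 without T cell clusters. Without the second E16.5 HP library it was -0.66 (edgeR adjusted p = 0.00667). The call was lost with stage as a term in place of the adult, which compares the sorts within stages (-1.07, edgeR adjusted p = 0.0991), and with other size factors (-1.19, edgeR adjusted p = 0.0597). It was also lost without the E18.5 HP library (-1.38, edgeR adjusted p = 0.0566) and without the E16.5, E18.5 or P0 stromal library (-1.29, -1.22 and -1.19, edgeR adjusted p = 0.0964, 0.114 and 0.121).

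Notch3 was at 14.03, 11.9, 15.6 and 19.7 CPM in stroma and at 0.573, 15.8, 0.617, 0.479 and 0.0845 in HPs, so the second E16.5 library overlapped the stroma (log2 difference 2.51 ± 1.39, edgeR adjusted p = 0.144). Without T cell clusters its log2 difference was 4.16 (edgeR adjusted p = 0.0036), and without that library 5.35 (edgeR adjusted p = 8.502e-05). T cell clusters had the highest HP levels of Notch1 and Notch3, so nothing is read from fits without them. Without the second E16.5 HP library Dll1 also passed (log2 difference 2.503, edgeR adjusted p = 0.0496). Without the first E16.5 HP library Notch2 did (0.53, edgeR adjusted p = 0.0253). With all libraries Dll1 had 1.67 ± 1.01, Notch2 0.196 ± 0.32 and Jag2 -0.41 ± 0.67, none past the threshold. With endothelial and pericyte-marker clusters left out Jag2 passed as lower in stroma (log2 difference -2.11, edgeR adjusted p = 0.00903). Stromal Jag2 was highest in clusters left out here, so nothing is read from this call. With stage as a term in place of the adult, Notch3 (4.49, edgeR adjusted p = 0.0405) and Dll1 (2.72, edgeR adjusted p = 0.0301) passed.

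**Figure D5:**
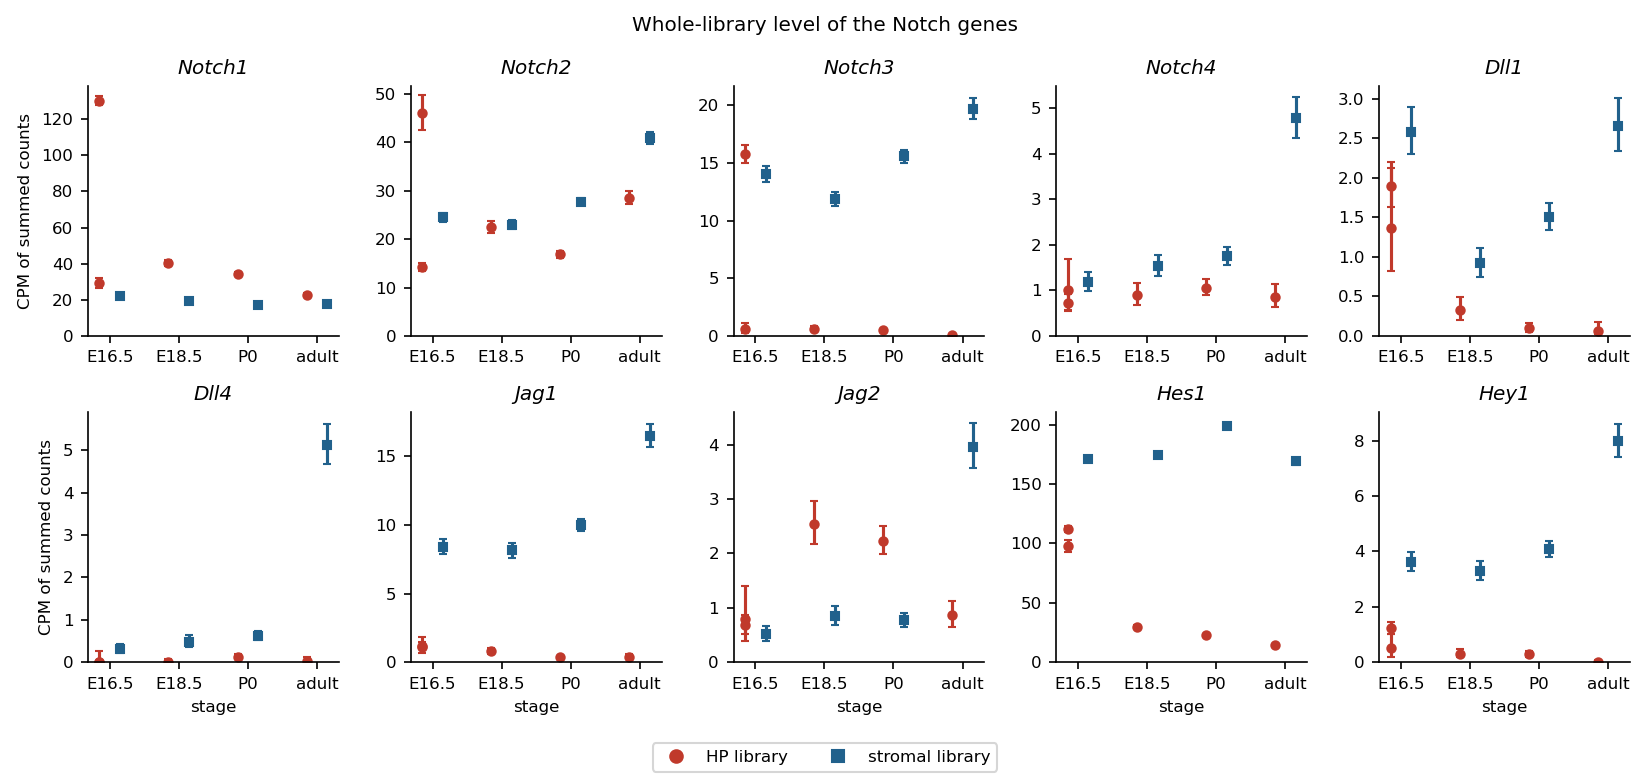
Level of each gene in the sum of each library (CPM) by stage for HP (circles) and stromal (squares) libraries, with exact Poisson 95% intervals. In the second E16.5 HP library Notch1 (130.3 CPM) and Notch3 (15.8 CPM) stand above the other HP libraries, and Notch4, Dll4 and Jag2 are highest in the adult stromal library among the stromal ones.

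Adult and perinatal libraries were then compared within each sort. There is 1 adult library a side, which was assumed to vary like the other groups. In HPs 0 of 10 members passed in edgeR (0.223% of 19323 genes did, 0.191% higher and 0.0311% lower), and 1 had an unadjusted p under 0.05, as did 15% of genes. In stroma 0 members passed (4.05% of genes, 3.2% higher and 0.849% lower), and 3 had an unadjusted p under 0.05, as did 22.9% of genes. DESeq2 called Notch3 (adjusted p = 0.0289) and Hey1 (0.0465) in HPs, where it called 5.99% of genes, and Notch4 (0.004999) and Jag2 (0.0321) in stroma, where it called 13.2%. On simulated counts of 18407 genes the edgeR test found 20% of 4-fold and 88% of 16-fold changes in HPs, and 13% and 77% in stroma. These counts had the common dispersion, so the shares do not hold for genes with a larger spread.

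In stroma the members with the lowest p were Notch4, Jag2 and Dll4, each higher in the adult library than in all 3 perinatal ones. Notch4 was at 1.18, 1.53, 1.75 and 4.79 CPM (log2 difference 1.56 ± 0.42, edgeR adjusted p = 0.0814). Jag2 was at 0.513, 0.845, 0.7697 and 3.96 CPM (log2 difference 2.35 ± 0.72, edgeR adjusted p = 0.105). The log2 difference of Dll4 was 3.298 ± 1.06 (edgeR adjusted p = 0.118), and it passed without the second E16.5 HP library (0.0434) or the P0 HP library (0.0384). The share of endothelial cells given above was highest in the adult, as were the Notch4 and Dll4 levels of its endothelial clusters. The parts of cell share and of level in these differences were not tested. Endothelial cells held 80%, 87.4% and 92.1% of the adult stromal UMIs of Notch4, Jag2 and Dll4. Nothing is therefore read from the fit without them. With endothelial and pericyte-marker clusters left out, the log2 difference was -0.25 for Notch4, 0.95 for Jag2 and 2.86 for Dll4 (edgeR adjusted p = 0.796, 0.516 and 0.238). In HPs Hey1 had the lowest p (log2 difference -4.88 ± 1.37, edgeR adjusted p = 0.191), with 1 UMI in the adult library.

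Whether the adult difference itself differed between the sorts was tested as an interaction. In edgeR 0 members and 0 genes (0%) passed, with 2 members and 3800 genes (19.7%) at an unadjusted p under 0.05. These members were Hey1 (5.87 ± 1.56, edgeR adjusted p = 0.126) and Jag2 (3.04 ± 1.14, edgeR adjusted p = 0.203). DESeq2 called 1790 genes (10.1%), Hey1 among them (adjusted p = 0.0206). On the simulated counts of 18407 genes the edgeR interaction test found 0% of 4-fold and 37% of 16-fold changes.

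Of 46 other pathway genes 44 were tested, and 15 were higher and 10 lower in stroma than in HPs, where 33.6% and 29.1% of all genes were. Among the higher were Dlk1 (7.74 ± 0.91 on the log2 scale, edgeR adjusted p = 1.04e-04) and Dlk2 (3.83 ± 0.71), which encode non-canonical ligands. The targets Heyl (3.16 ± 0.597) and Hey2 (3.49 ± 0.95) were others, as was Numbl, of the NUMB family of NOTCH inhibitors (4.17 ± 0.18). Among the lower were the glycosyltransferases Mfng (-4.08 ± 0.61) and Lfng (-1.68 ± 0.34), which set the ligand preference of the receptors. Others were the receptor protease Adam10 (-1.17 ± 0.203), Il2ra (-9.75 ± 3.24) and Hes6 (-1.66 ± 0.29). Genes of the Hes and Hey families thus went both ways. The call of Il2ra was lost without the E16.5, E18.5 or P0 stromal library (highest edgeR adjusted p = 0.0964). In adult against perinatal stroma Dlk2 (3.62 ± 0.63), Mfng (2.17 ± 0.37) and Rfng (1.69 ± 0.27) were higher in the adult library and Dlk1 (-8.95 ± 1.32, edgeR adjusted p = 0.0176) lower, 4 of 44 where 4.05% of all genes passed. The calls of Dlk2, Mfng and Rfng were each lost without the E16.5, E18.5 or P0 stromal library (highest edgeR adjusted p = 0.124, 0.112 and 0.0986), and that of Dlk1 without the E16.5 or E18.5 one (0.0782). Mfng was at 102 CPM in adult endothelial cells and 0.285 in the other adult stromal cells. In HPs 0 of the 44 passed in edgeR, and 7 had an unadjusted p under 0.05, where 15% of all genes did.

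Likeness of levels was described over 70 class-by-library sums for genes with at least 1000 UMIs, as Pearson's r of log2(CPM + 1), among 13382 genes. Such sums share their library's depth and preparation. The most like genes of Notch4 were Nos3 (0.882), Kank3 (0.878) and Ushbp1 (0.855), and those of Notch3 Des (0.824), Rtn2 (0.808) and Tagln (0.795). Jag1 and Hey1 were each other's most like gene (0.93), and for Jag2 these were 8430408G22Rik (0.847), Robo4 (0.839) and Emcn (0.82). The first gene was Zfp319 (0.739) for Notch1, Emp3 (0.631) for Notch2, Bik (0.764) for Dll1 and Lpp (0.839) for Hes1. Dll4 had 701 UMIs in all and was left out.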

How the data were processed

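Chromium 3′ libraries had been counted by the authors with Cell Ranger 3.1.0 on mm10, and filtered and clustered with Seurat 3.1.5 in R 4.0, per the submitters' processing notes. The deposited matrix holds raw UMI counts for each gene and cell. The deposited cell table gives library, cluster code, UMI counts and the mitochondrial share as a fraction. The authors had removed cells at the upper end of genes and UMIs as doublets, and no caller was run here. Antibody counts were not used here.

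The members and gene lists were chosen with earlier results of these data known. The text names the 10 members. Further genes named were drawn from a list of 46 other pathway genes, the 3 most like genes of each member with at least 1000 UMIs, and cell type markers. Cells were grouped by deposited code. UMIs were summed per library and tested with edgeR 4.0.16 in R 4.3.3 (TMM, default filter on low counts, quasi-likelihood F test, Benjamini-Hochberg adjustment). The same fits were also run on simulated counts, drawn with the library sizes, a pooled mean per gene and the common dispersion of the real data. Genes with a spread above the common one were not simulated. The share of recovered changes is given with the adult comparison and the interaction. Libraries are pools, so p-values measure the spread between libraries, most of which are of different stages. Alternatives were DESeq2 1.42.0, other size factors and denominators, no filter, cells with at least 1000 UMIs, other covariates, each library left out, and sets of cells left out.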

Additional observations from a re-analysis of the deposited data

Results flagged for a closer look

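The 10 genes were looked at in 3 sets of libraries (HP, perinatal HP and stroma), and in 11 of these 30 groups 1 library lay far from the rest for the size of the group. Chance gives about 1 in 20 for a single group, but these groups are not separate, since the perinatal HP libraries are among the HP libraries and the genes share libraries, so the count was not compared with chance. The share of all genes flagged in this way is not given, so nothing is read from the count. The second E16.5 HP library was highest for Notch1 (130.3 CPM, next 40.2) and for Notch3 (15.75 CPM, next 0.617), both among all 5 HP libraries and among the 4 perinatal ones. The P0 HP library was highest for Dll4 in both sets (0.118 CPM, from 15 UMIs), with 0.0338 in the adult and 0.0154 on E18.5. The adult stromal library was highest for Notch4 (4.79 CPM, next 1.75), Dll4 (5.13, next 0.621), Jag2 (3.96, next 0.845) and Hey1 (7.99, next 4.08), and the P0 stromal library for Hes1 (199 CPM, next 174).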

How the results depend on the processing

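By replicate number, no paired analysis was possible because the labels number only the E16.5 HP libraries. The sorts share stages, and the fit with stage as a term compares them within stages. Of 590 member log2 differences under other settings, 557 kept their direction and side of the threshold, 9 were weaker, 14 stronger and 10 reversed. The reversed ones had not passed, and the cause was not tested. With no adult term, Jag2 between the sorts was 0.126. Without T cell clusters, Notch4 in adult against perinatal HPs was -0.076. Without endothelial and pericyte-marker clusters, Notch3, Notch4 and Dll1 in adult against perinatal stroma were -0.063, -0.252 and -0.979. With 1 library left out, Notch4 in HPs ranged from -0.062 to 0.186, Dll4 in HPs from -0.763 to 2.449, and the Notch2 interaction from -0.265 to 0.359.

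Between the sorts 11557 genes were called, and 9771 to 12010 with 1 library left out. With stage in place of the adult term Notch3 (log2 difference 4.49) and Dll1 (2.72) passed and Notch1 did not. DESeq2 called 1040 genes in adult HPs, 2391 in adult stroma and 1790 for the interaction, against 43, 783 and 0. Other size factors and cells with at least 1000 UMIs each gave 1 gene for the interaction, and leaving out 1 library gave 0 to 1. Without T cell clusters 75 genes were called in adult HPs. With 1 library left out the count ranged from 4 to 64 in HPs, namely 18 without the first E16.5 HP library, 13 without that of E18.5, and 11, 4 and 4 without the E16.5, E18.5 and P0 stromal ones. In stroma it ranged from 30 to 1456, namely 1268 and 1456 without the first or second E16.5 HP library, 489 without E18.5 HPs, and 51, 30 and 230 without the E16.5, E18.5 and P0 stroma. With at least 50 UMIs required, 1132 genes were 2-fold apart between AECs and SECs, against 1764. Of 141 member levels and shares in endothelial and pericyte-marker clusters under other settings, 54 moved beyond their counting interval. Levels of a few CPM rest on few UMIs. The sets of cells left out were chosen after seeing the data.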
